A study of Mus musculus with 5 samples.

Results

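The transcripts described here encode the ATP-dependent chromatin remodellers of mouse neuroepithelial cells: the BAF complexes (the mammalian SWI/SNF family), the ISWI and CHD families with the NuRD complex, and the INO80 and SRCAP group. Members were taken by gene name, as every row whose name starts with Smarc or with Chd and a digit, together with a fixed set of named partner subunits. The rule took 52 of the 21801 genes in the table, and all 52 were above 0 in at least 1 library, Actl6b through replicate 2 alone. RNA sequencing had been done on 5 libraries of purified neuroepithelial cells (NECs), the dividing epithelium of the early neural tube, which the labels place in 1 group as replicates 1 to 5 and also call neural progenitor cells. The labels used here state no strain, genotype, embryonic age or method of purification, and no other group was analysed, so levels were set against a fixed level, against other genes of the same library, and between libraries. Nothing in the labels ties the replicates to separate embryos or cultures, so each p-value speaks to the spread among these 5 samples alone, and that spread may be technical.

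Remodellers use ATP to slide, evict or exchange nucleosomes, and most are assembled from subunits that several paralogous genes can supply. The BAF complex is known for an exchange of such paralogs in the nervous system: dividing neural progenitors carry ACTL6A (BAF53a), PHF10 (BAF45a) and SS18, and postmitotic neurons carry ACTL6B (BAF53b), DPF1 or DPF3 (BAF45b and BAF45c) and SS18L1 (CREST) in their place. In that exchange the microRNAs miR-9* (miR-9-3p) and miR-124 repress Actl6a in neurons, and the repressor REST keeps neuronal genes, those microRNAs among them, silent in progenitors.

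The sequences below show the best-known partners of that exchange, since the levels of Actl6a and Actl6b differed more than those of any other pair described here. The first lines are promoter windows from RefSeq on GRCm38.p6, each with 250 bases before and 50 bases after the gene's RefSeq start and read on the plus strand: Actl6a at chr3:32708296-32708595 and Actl6b at chr5:137553296-137553595. The RefSeq start of Actl6a (32708546) lies 2248 bases inside the gene as GENCODE M21 draws it, and that of Actl6b lies 29 bases inside. Capitals mark GCTGTCC and GGTGCTGA, searched on both strands, which are the core letters of the right and the left part of the element that REST binds, and the motifs do not overlap each other. They were chosen after the Actl6b window had been read.
Actl6a promoter: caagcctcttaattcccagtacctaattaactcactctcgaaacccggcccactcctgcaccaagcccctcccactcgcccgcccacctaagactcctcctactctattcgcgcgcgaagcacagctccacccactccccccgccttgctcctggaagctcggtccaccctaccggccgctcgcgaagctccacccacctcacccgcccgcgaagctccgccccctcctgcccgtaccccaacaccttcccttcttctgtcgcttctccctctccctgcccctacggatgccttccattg
Actl6b promoter: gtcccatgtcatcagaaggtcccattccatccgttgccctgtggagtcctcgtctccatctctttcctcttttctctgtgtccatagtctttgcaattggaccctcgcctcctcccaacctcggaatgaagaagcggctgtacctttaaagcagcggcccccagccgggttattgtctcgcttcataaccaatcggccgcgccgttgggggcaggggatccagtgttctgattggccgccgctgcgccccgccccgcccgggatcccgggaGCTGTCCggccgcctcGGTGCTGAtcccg

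In the Actl6b window GCTGTCC began 22 bases and GGTGCTGA 38 bases after the gene's RefSeq start, on the same strand. They fill bases 272 to 278 and 288 to 295 of the window, so other bases separate them. Whether they form an element that REST binds was not tested. Of all 32851 RefSeq promoter windows, 6.56% held GCTGTCC, 1.65% held GGTGCTGA and 0.131% (43 windows) held both on either strand. That count took any order and distance. Windows were found for 42 of the 52 members, and Actl6b was the only one of these 42 with GGTGCTGA, whereas 8 had GCTGTCC. The Actl6a window held neither motif, which says only that these letters are not in it.

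The next lines show the mature miR-9-3p of Mir9-1, with its seed (bases 2 to 8) in capitals, and the place in the Actl6a 3′ untranslated region, on GRCm38 at chr3:32726629-32726657 (plus strand, GENCODE M21), whose capitals pair with that seed. It is the only such match in the 371 bases of that region in the longest coding transcript. The match is a property of the letters, and microRNA levels were not analysed here.
mmu-miR-9-3p: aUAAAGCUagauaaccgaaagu
Actl6a 3′ UTR site: tcaacgtctgtAGCTTTAgtacactcagg

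Levels are in FPKM, by definition the fragments of a gene scaled to its transcript length in kilobases and to every 1000000 mapped reads. Whether the libraries had also been scaled to each other was not established. Levels are given as mean ± SD over the 5 libraries (n = 5) unless each library is listed. FPKM is per length, and levels of different genes were set side by side on that basis. The annotation release behind those lengths is not given, and amplified cDNA can favour some transcripts, so comparisons between genes are approximate. FPKM summed to between 747034 and 847625 per library, and the steps between low values implied the depth behind the unit, at which 1 read in a transcript of 2000 bases was worth 0.0196 to 0.0269 FPKM. Pearson's r of log2(FPKM + 1) across genes ran from 0.990 to 0.997 between libraries.

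Remodeller transcripts were widespread. By limma's moderated test of log2(FPKM + 1) against the value of 1 FPKM, with Benjamini-Hochberg adjustment over all 19706 genes above 0 in at least 1 library and adjusted p under 0.05, 45 of the 52 members (86.5%) lay above 1 FPKM. The share among all tested genes was 52.3%. Another 4 members (7.69%) lay below the level, against 41.4% of all tested genes, and 3 were called neither way, against 6.21%. The median member stood at 17.9 FPKM and the median tested gene at 1.79 FPKM. The mean was at least 100 FPKM in 8 members, and 23 lay from 10 to 100, 16 from 1 to 10 and 5 under 1. The 4 members below the level were Actl6b, Bcl11a, Bcl11b and Chd5, and the 3 called neither way were Dpf3, Ss18l1 and Smarcd3.

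By the same test all 8 neural progenitor markers were called above 1 FPKM, and so were 6 of 10 neuron, 8 of 10 mesenchyme and 7 of 8 surface ectoderm markers. Of all tested genes 52.3% were called above that level, and the neuron count lies near that share. The summed mesenchyme level was 39.3, 67.3, 142, 116 and 118 FPKM in replicates 1 to 5, and the summed neuron level was 124, 132, 93.4, 104 and 103 FPKM. Surface ectoderm markers summed to 119, 183, 169, 125 and 125 FPKM in the same order. These sums lean on the most abundant gene of each list (Lum, Tubb3 and Krt18), and not every marker followed its sum. Gap43 was lowest in replicates 1 and 2, where the neuron sum was highest, and Tfap2a, Col1a1 and Dcn also took courses of their own. Of 5 endothelium markers 1 was called above the level and 2 were called neither way, with a sum of 4.97 to 7.97 FPKM per library, and of 5 blood and microglia markers none was called above it, with 1 called neither way (Alas2, 1.23 FPKM on average) and Aif1 listed at 0 in all libraries. In such bulk samples fewer cells of a type and less RNA per cell cannot be told apart.

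**Figure D1:**
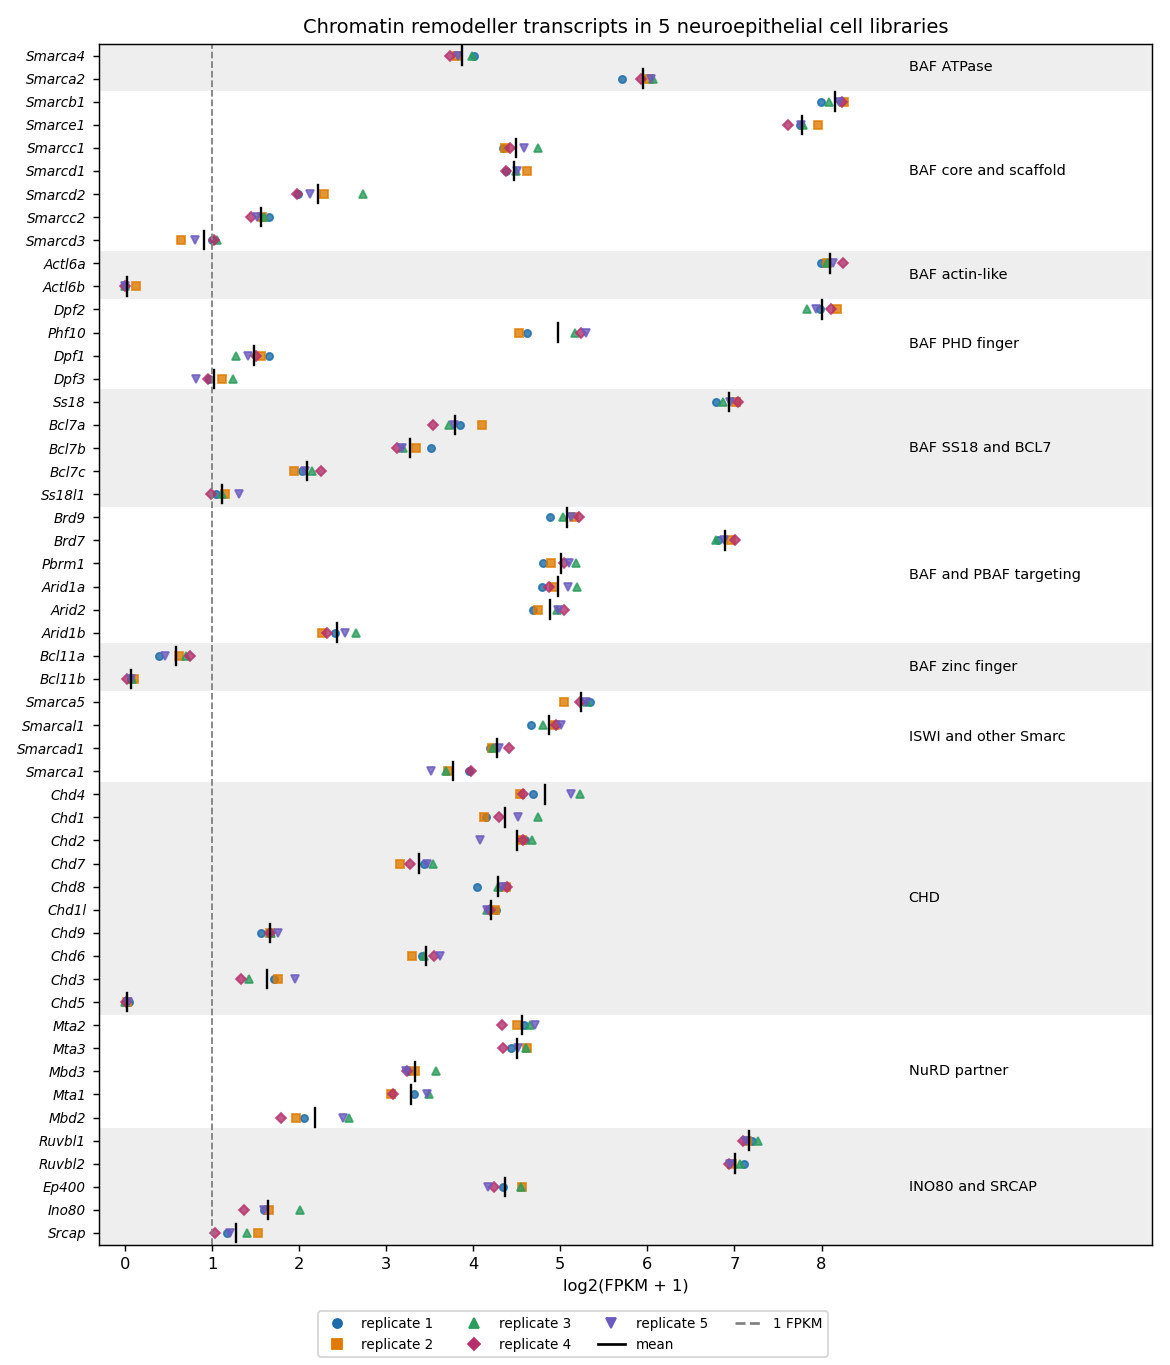
Levels of the 52 remodeller transcripts by role, as log2(FPKM + 1) on the horizontal axis. Each symbol is 1 of 5 libraries, the black bar is the mean and the dashed line is 1 FPKM. Smarcb1, Actl6a, Dpf2 and Smarce1 lie farthest to the right, and Actl6b, Chd5 and Bcl11b lie close to 0.

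The progenitor-type subunits of BAF were abundant, and their neuron-type counterparts were low or near 0. Actl6a, the actin-like subunit of progenitors (ENSMUSG00000027671, chromosome 3, 32706298 to 32726973 on mm10), had 255, 266, 267, 303 and 280 FPKM in replicates 1 to 5. Actl6b, its neuronal counterpart (ENSMUSG00000029712, chromosome 5, 137553517 to 137569582), was listed at 0, 0.0882, 0, 0 and 0 FPKM. The ranges did not come near each other in any library. At the implied depth of replicate 2, 1 read in the longest coding Actl6b transcript of 1592 bases was worth 0.0275 FPKM, so the value above 0 rests on a few reads. On the log2(FPKM + 1) scale Actl6a exceeded Actl6b by 8.08 ± 0.12 in 5 of 5 libraries, a difference of the log values that is no fold change, since Actl6b was listed at 0 in 4 libraries. Actl6a lay above 1 FPKM (log2 difference 7.10, SE 0.04, limma adjusted p = 3.28e-12) and Actl6b below it (-0.98, SE 0.02, limma adjusted p = 3.75e-09). The exons of Actl6a overlap those of Mrpl47 (70.2 ± 7.17 FPKM) on the opposite strand over 452 bases, and no strand-specific step is described, so reads there cannot be told apart.

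Ss18, the progenitor-type subunit named for the synovial sarcoma translocation, had 109, 128, 116, 131 and 123 FPKM in replicates 1 to 5. Ss18l1, a calcium-responsive activator in neurons, had 1.07, 1.22, 1.16, 0.978 and 1.48 FPKM. Every library held Ss18 far above Ss18l1, with a difference of 5.81 ± 0.16 on the log2(FPKM + 1) scale, and Ss18 made up 99.0% ± 0.159 of their summed FPKM. Ss18l1 was called neither above nor below 1 FPKM (limma adjusted p = 0.147), and was called above it when each library was rescaled to a sum of 1000000 FPKM (limma adjusted p = 0.0101).

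Phf10, a PHD finger subunit of progenitors that is also part of the PBAF form, had 23.6, 21.9, 35.0, 36.8 and 38.3 FPKM in replicates 1 to 5. Dpf1 had 2.16, 1.96, 1.43, 1.85 and 1.66 FPKM, and Dpf3, which binds acetylated histones, had 0.954, 1.17, 1.36, 0.935 and 0.758 FPKM. Phf10 lay above both in each library, by 3.49 ± 0.48 over Dpf1 and by 3.95 ± 0.44 over Dpf3 on the log2(FPKM + 1) scale. Dpf1 lay above 1 FPKM (log2 difference 0.48, SE 0.08, limma adjusted p = 0.000815), and Dpf3 was called neither way (log2 difference 0.02, limma adjusted p = 0.83), with a direction that turned without replicate 2 or without replicate 3. Dpf2, the paralog found in most cell types, was the most abundant of the 4 at 258 ± 24.5 FPKM and exceeded Dpf1 by 6.52 ± 0.12. Of the summed FPKM of these 4 genes Phf10 held 10.8% ± 2.89, Dpf2 88.3% ± 2.84, Dpf1 0.621% ± 0.0902 and Dpf3 0.358% ± 0.0962.

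**Figure D2:**
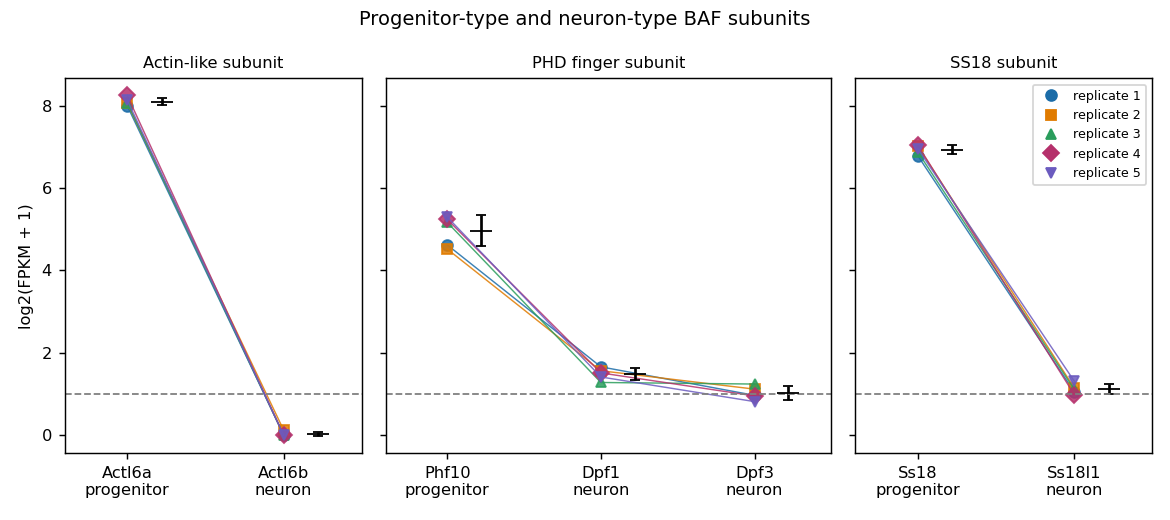
Progenitor-type subunits (left in each panel) and neuron-type subunits (right) as log2(FPKM + 1), with 1 line per library, the mean and SD beside the points (n = 5) and a dashed line at 1 FPKM. In 5 of 5 libraries each progenitor-type subunit lies above its neuron-type counterparts, with Actl6b at or near 0.

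Beside these low neuron-type subunits, 6 of 10 neuron markers lay above 1 FPKM, which is near the share of 52.3% among all tested genes. Tubb3, a neuronal tubulin, stood at 61.6 ± 13.1 FPKM and Stmn2, a regulator of microtubules, at 8.53 ± 3.11. Gap43 (18.2 ± 5.23), Map2 (13.3 ± 5.01), Elavl4 (6.27 ± 1.88) and Snap25 (2.06 ± 0.541) also lay above 1 FPKM. The other neuron markers, Dcx (0.270 ± 0.175), Elavl3 (0.407 ± 0.126), Syt1 (0.387 ± 0.214) and Rbfox3 (0.161 ± 0.122), lay below 1 FPKM. The part of neurons in the levels of Dpf1, Dpf3 and Ss18l1 was not tested. Among genes that restrain the neuronal programme, Rest had 4.56, 4.94, 8.13, 6.64 and 6.84 FPKM in replicates 1 to 5 and its corepressor Rcor1 had 5.29 ± 0.723. Ptbp1, a splicing repressor of non-neuronal cells, stood at 373 ± 35.9 FPKM and its neuronal homolog Ptbp2 at 73.3 ± 8.34. All 4 lay above 1 FPKM, against 52.3% of all tested genes.

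Most other pairs of paralogs were also unequal. In all, 22 pairs were compared within libraries by exact permutation, flipping the signs of the 5 differences in all 32 patterns (two-sided), with Benjamini-Hochberg adjustment over the pairs. The first gene was higher in 5 of 5 libraries in 16 pairs and the second in 4, and for these 20 pairs the exact test gave p = 0.0625 (adjusted 0.0688). That is the smallest p that 5 libraries allow, so no pair could pass 0.05, and the size of a difference beside its SD is what can be read. The other 2 pairs were mixed.

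**Figure D3:**
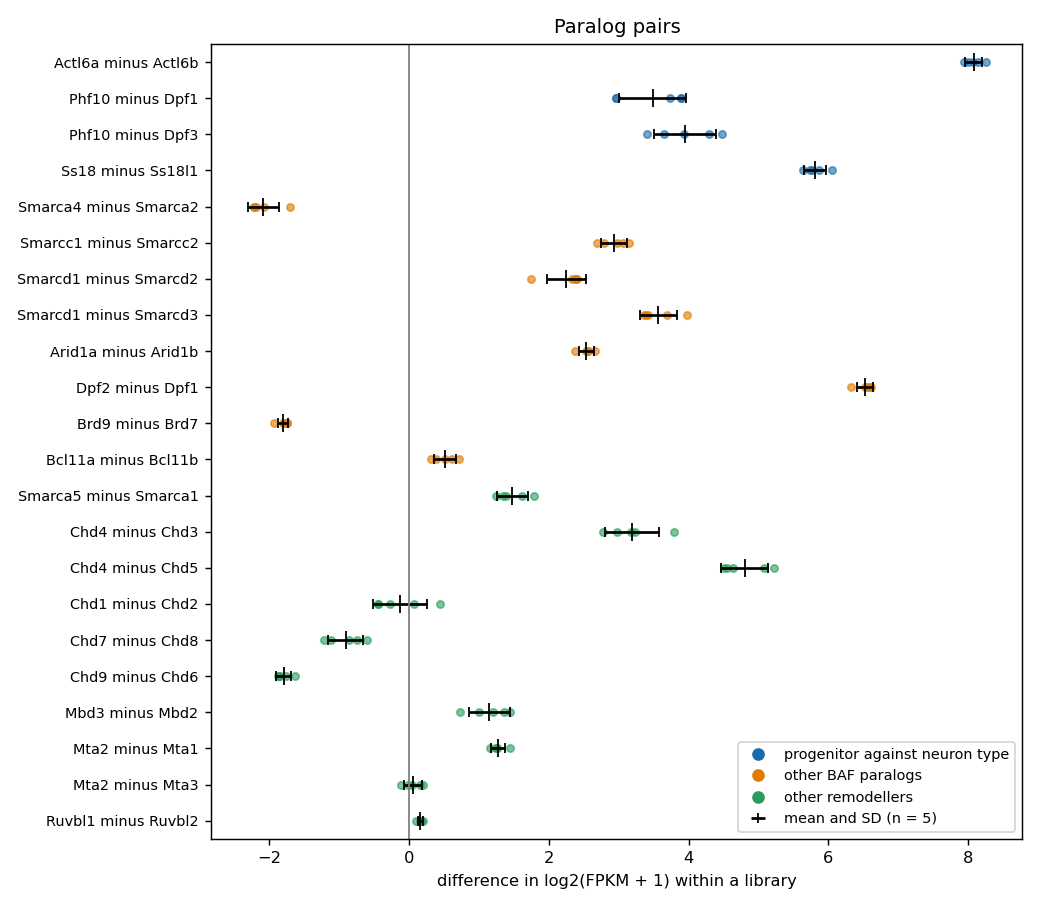
Difference in log2(FPKM + 1), the first-named gene minus the second, for 22 paralog pairs. Points are the 5 libraries, and the black bar is the mean with its SD. Only Chd1 minus Chd2 and Mta2 minus Mta3 have libraries on both sides of 0.

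Transcripts of both paralogs for the ATPase of BAF were present, with more from the one less tied to proliferation. Smarca4 (BRG1), which dividing progenitors need, had 15.0, 13.0, 14.9, 12.3 and 13.1 FPKM in replicates 1 to 5, against 51.5, 64.0, 65.9, 59.9 and 65.0 FPKM for Smarca2 (BRM). Each library held less Smarca4 than Smarca2, by a difference of -2.08 ± 0.22 on the log2(FPKM + 1) scale, and Smarca4 made up 18.4% ± 2.47 of their sum. GENCODE M21 lists 4 transcripts of 3800 to 6376 bases for Smarca4 and 46 of 421 to 5921 bases for Smarca2. The labels do not say which of them entered the deposited values, and the part of transcript length in this difference was not tested.

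Among the core subunits, Smarcb1 (SNF5, ENSMUSG00000000902, chromosome 10, 75896769 to 75921617), which anchors the complex on the nucleosome, had the highest mean of all members at 284 ± 21.8 FPKM, although Actl6a was higher in replicates 1 and 4 and the means of these 2 genes differ by less than either SD. Smarce1 (BAF57), a subunit with an HMG box, followed at 219 ± 18.8, and since GENCODE M21 lists a processed copy, Smarce1-ps1, its level is uncertain if reads were split with it. Smarcc1 (BAF155) stood at 21.6 ± 2.72 FPKM against 1.95 ± 0.162 for Smarcc2 (BAF170), an excess of 2.93 ± 0.19 on the log2(FPKM + 1) scale, and Smarcc1 made up 91.6% ± 1.16 of their sum. BAF170 is known to compete with BAF155 for its place in cortical progenitors. Here each library held more Smarcc1, as the pair plot shows. The exons of Smarcc1 overlap those of Dhx30 (117 ± 8.83 FPKM) on the opposite strand over 123 bases, so reads there could not be assigned without strand.

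The SMARCD subunits (BAF60), which link the complex to transcription factors, were led by Smarcd1 at 21.3 ± 1.54 FPKM. Smarcd2 had 2.96, 3.89, 5.68, 2.94 and 3.35 FPKM in replicates 1 to 5, highest in replicate 3. Smarcd3 (BAF60c), best known from heart and muscle, had 0.993, 0.566, 1.09, 1.03 and 0.753 FPKM and was called neither way (log2 difference -0.09, limma adjusted p = 0.279), a direction that turned to 0.07 when each library was rescaled to a sum of 1000000 FPKM. Smarcd1 exceeded Smarcd2 by 2.25 ± 0.28 and Smarcd3 by 3.57 ± 0.26 on the log2(FPKM + 1) scale, in 5 of 5 libraries. The exons of Smarcd3 overlap those of Chpf2 on the opposite strand over 2466 bases, so reads there could not be assigned without strand, and Chpf2 stood at 0.437 ± 0.0715 FPKM.

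The ARID, PBRM1 and bromodomain subunits, which tell the forms of BAF apart, all lay above 1 FPKM. Arid1a, the ARID protein of canonical BAF, stood at 30.6 ± 3.54 FPKM and exceeded Arid1b, its paralog, at 4.43 ± 0.604 by 2.54 ± 0.10 on the log2(FPKM + 1) scale. The PBAF subunits Arid2 (28.6 ± 3.08), Pbrm1 (31.2 ± 3.44) and Brd7 (118 ± 7.77) were present beside it. Brd9, the bromodomain subunit of the non-canonical form, stood at 33.0 ± 3.00 FPKM, lower than Brd7 in 5 of 5 libraries (difference -1.80 ± 0.08). Its partners Gltscr1 (0.200 ± 0.0712) and Gltscr1l (0.494 ± 0.0991) were both called below 1 FPKM, and Gltscr1l no longer was against a level of 0.5 FPKM (limma adjusted p = 0.878).

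Bcl7a (13.0 ± 2.01), Bcl7b (8.72 ± 1.10) and Bcl7c (3.26 ± 0.349), small subunits of all BAF forms, shared their position as 51.9%, 34.9% and 13.3% of their sum. The zinc finger subunits were low. Bcl11a (CTIP1), a factor of cortical neurons, had 0.311, 0.543, 0.631, 0.675 and 0.371 FPKM in replicates 1 to 5, and Bcl11b (CTIP2), which marks corticospinal neurons, had 0.0497, 0.0772, 0.0613, 0.0178 and 0.0492 FPKM. Both lay below 1 FPKM in every library, with Bcl11a the higher in 5 of 5. Bcl11a (limma adjusted p = 0.000395) was no longer called below when the level was set at 0.5 FPKM (limma adjusted p = 0.994).

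**Figure D4:**
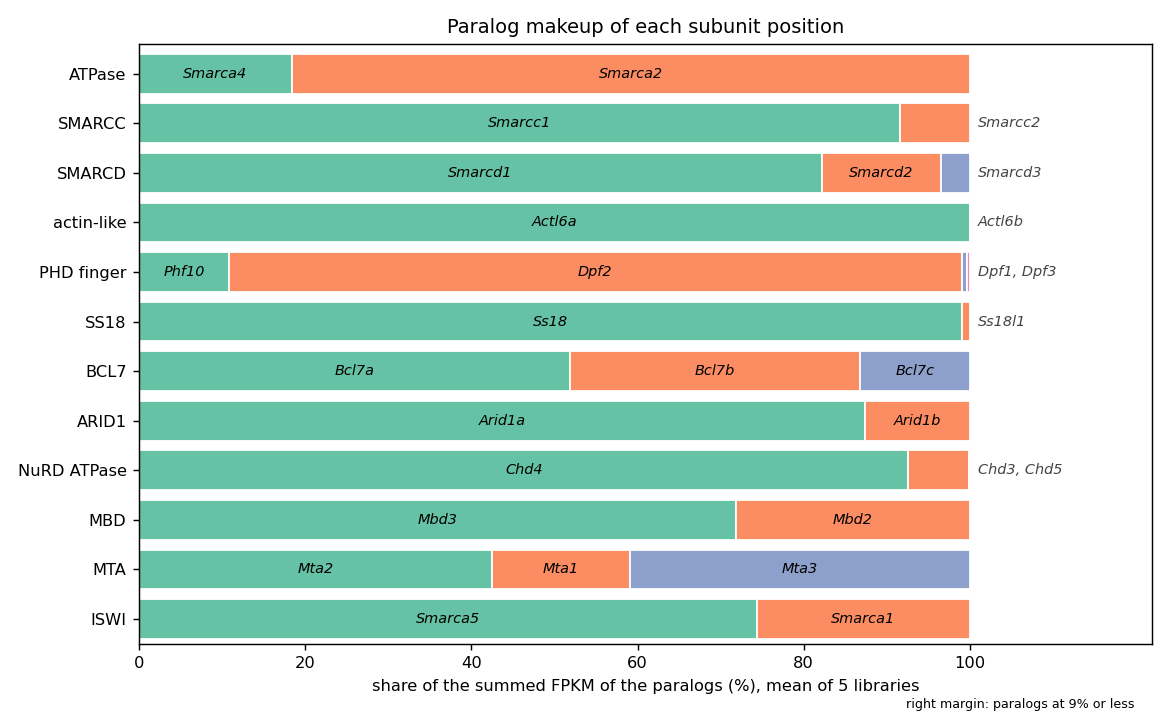
Share of each paralog in the summed FPKM of its subunit position (%), mean of 5 libraries, with paralogs at 9% or less named at the right margin. Actl6a, Ss18, Chd4 and Smarcc1 each hold over 90% of their position, whereas the BCL7 and MTA positions are divided among 3 genes.

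The ISWI ATPases space nucleosomes. Smarca5 (SNF2H), which serves proliferating cells, stood at 37.0 ± 2.96 FPKM, and Smarca1 (SNF2L), known from differentiating neurons, at 12.7 ± 1.83, so that Smarca5 was higher in 5 of 5 libraries by 1.48 ± 0.22 on the log2(FPKM + 1) scale. GENCODE M21 lists a processed copy of Smarca5, so its level is uncertain if reads were split with that copy, which was not measured. All 9 ISWI partners examined lay above 1 FPKM, against 52.3% of all tested genes. They ran from Baz2a, a subunit of the nucleolar complex, at 8.50 ± 0.905 to Pole3, a histone-fold subunit of the CHRAC complex, at 103 ± 3.58. The fork-remodelling ATPase Smarcal1 stood at 28.4 ± 2.76 FPKM and Smarcad1, which keeps silent chromatin through replication, at 18.3 ± 1.21.

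In the CHD family 9 of 10 genes lay above 1 FPKM, against 52.3% of all tested genes. Chd4 (Mi-2β), the main ATPase of NuRD, had 24.7, 22.2, 36.5, 22.7 and 33.9 FPKM in replicates 1 to 5. Chd3, which replaces it as neurons mature, had 2.27, 2.40, 1.69, 1.52 and 2.86 FPKM, and Chd5, the neuronal form, had 0.0362, 0.0189, 0, 0.0117 and 0.0286 FPKM. Chd4 was far above both in each library, by 3.19 ± 0.38 over Chd3 and 4.80 ± 0.33 over Chd5 on the log2(FPKM + 1) scale, and held 92.6% ± 2.07 of the sum of the 3. At the implied depths 1 read in the longest Chd5 transcript of 9486 bases was worth 0.0038 to 0.00522 FPKM. Chd5 thus rests on few reads where it was above 0, and it was listed at 0 in replicate 3.

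Chd7, mutated in CHARGE syndrome, stood at 9.43 ± 1.11 FPKM and its partner Chd8, an autism gene, at 18.6 ± 1.80, with Chd7 lower in 5 of 5 libraries (difference -0.91 ± 0.25). Chd1, which reads methylated histone H3 at lysine 4, stood at 19.9 ± 3.99 and Chd2 at 21.8 ± 3.41 FPKM. These differed by -0.13 ± 0.38, and Chd1 was the higher in 2 of 5 libraries (p = 0.5 by the same exact permutation, adjusted 0.5), so their order did not exceed the spread. The exons of Chd2 share 2628 bases with 1810026B05Rik on the same strand, a gene with no level of its own here, so reads there cannot be told apart. Chd9 (2.18 ± 0.152) lay below Chd6 (10.1 ± 0.957) in each library (difference -1.80 ± 0.10), and Chd1l, which poly(ADP-ribose) activates, stood at 17.5 ± 0.643 FPKM.

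The partners of Chd4 in NuRD, which couples remodelling to histone deacetylation, all lay above 1 FPKM. Mbd3 (9.09 ± 1.07) exceeded Mbd2 (3.63 ± 1.11), the paralog that binds methylated CpG, by 1.15 ± 0.29 on the log2(FPKM + 1) scale. Of the MTA scaffolds, Mta2 (22.6 ± 2.33) exceeded Mta1 (8.81 ± 1.39) by 1.27 ± 0.11 in 5 of 5 libraries. Mta2 and Mta3 (21.7 ± 1.82) differed by 0.05 ± 0.13, and Mta2 was the higher in 3 of 5 (p = 0.375 by the same exact permutation, adjusted 0.393), which is within the spread. All 7 other NuRD subunits examined also lay above 1 FPKM, against 52.3% of all tested genes. They ran from the scaffold Gatad2a at 11.5 ± 2.07 to the histone-binding Rbbp4 at 519 ± 31.4. The deacetylase Hdac1 stood at 304 ± 24.8 and Hdac2 at 44.8 ± 8.05.

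In the INO80 and SRCAP group the shared subunits Ruvbl1 and Ruvbl2 were the highest members, and Ino80 and Srcap, which name their complexes, the lowest. Ruvbl1 and Ruvbl2, AAA ATPases that form a common ring, stood at 143 ± 7.03 and 128 ± 6.83 FPKM, with Ruvbl1 higher in 5 of 5 libraries by 0.16 ± 0.04 on the log2(FPKM + 1) scale. Ep400 (19.8 ± 2.55), which exchanges the histone variant H2A.Z, was the highest of the 3 large ATPases. Ino80 had 2.16 ± 0.524 FPKM, and Srcap, which also deposits H2A.Z, had 1.26, 1.87, 1.65, 1.05 and 1.31 FPKM in replicates 1 to 5. Srcap lay above 1 FPKM (limma adjusted p = 0.0225) but no longer without replicate 2 (0.0689) or replicate 3 (0.0661), and its exons share 9738 bases with Gm42715 on the same strand.

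Led by the deubiquitinase Uchl5 at 51.9 ± 3.05, 9 of 11 other INO80 subunits lay above 1 FPKM, against 52.3% of all tested genes. Ino80b was called below 1 FPKM at 0.481 ± 0.141, though not below 0.5 FPKM (limma adjusted p = 0.704). Actr5, an actin-related subunit, was called neither way at 1.26 ± 0.546. All 18 other SRCAP and TIP60 subunits or substrates lay above 1 FPKM, against the same 52.3%. They ran from Mrgbp at 4.81 ± 0.538 to H2afz, which encodes H2A.Z itself, at 7587 ± 523. H2afv, the second H2A.Z gene, stood at 170 ± 20.4 FPKM, and genes such as H2afz and Rbbp4 have near-identical copies that could share reads.

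Remodeller transcripts varied between libraries about as much as other expressed genes. Among genes averaging 1 FPKM or more, the SD of log2(FPKM + 1) had a median of 0.15 for the 47 members that qualified and 0.16 for all 10983 genes that did. Of these 47, the 5 with the largest SD were Phf10 (0.37), Mbd2 (0.34), Chd4 (0.32), Smarcd2 (0.32) and Chd1 (0.27). Mbd2 had 3.16, 2.91, 4.95, 2.46 and 4.66 FPKM in replicates 1 to 5, and like Chd4 it was highest in replicates 3 and 5.

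Replicates 3 and 5 were the highest libraries for 12 of the 47 members (25.5%) and for 15.2% of all 10983 genes. The 12 were Arid1a, Arid1b, Chd1, Chd4, Chd7, Chd9, Mbd2, Mta1, Mta2, Pbrm1, Smarca2 and Smarcc1, which include Chd4 and 3 of the 5 NuRD partners. This pairing of libraries was picked after all 10 had been counted. Phf10 followed another order, with 21.9 to 23.6 FPKM in replicates 1 and 2 and 35.0 to 38.3 in replicates 3 to 5. The summed mesenchyme markers were likewise lowest in replicates 1 and 2, and so were genes outside that list, such as Rest, Hdac2, Gap43 and the member Arid2. How many genes of the whole table share this order was not counted. The exons of Phf10 overlap those of 1600012H06Rik (10.8 ± 1.43 FPKM, highest in replicate 1) on the opposite strand over 470 bases. The part of other cells in these differences was not tested.

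**Figure D5:**
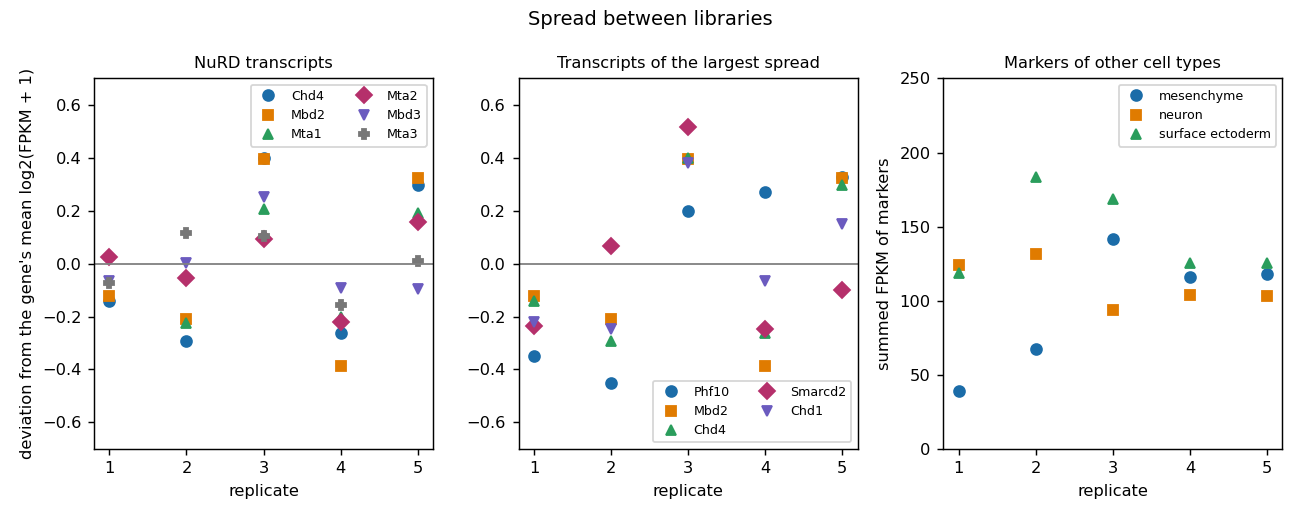
Deviation of NuRD transcripts (left) and of the 5 transcripts with the largest SD (middle) from each gene's own mean log2(FPKM + 1), by replicate, and the summed FPKM of markers of other cell types (right). Chd4 and Mbd2 are highest in replicates 3 and 5, and Phf10 and the summed mesenchyme markers are lowest in replicates 1 and 2.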

How the data were processed

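The authors deposited 1 table of FPKM with a column per replicate, and columns and samples were joined on replicate number. Per the labels' protocols, poly-dT primed, template-switched cDNA was amplified for 12 cycles, sheared, amplified for 15 more and read as single ends of 75 bases. No molecular identifiers and no strand-specific step are described. Such cDNA can favour some transcripts, which touches comparisons between genes most. Per the submitters' processing notes, Cuffdiff 2.2.1, TopHat2 2.0.11, cutadapt and CASAVA were used with mm10, in roles and an order the notes do not give. The annotation release is not given in the sources used here.

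A count test is not suited to FPKM. For each of 19706 genes above 0 in at least 1 library, limma 3.58.1 (R 4.3.3) tested an intercept of log2(FPKM + 1), two-sided, against its value at 1 FPKM, moderated with a variance trend. Differences of low genes are understated on this scale. Another 2095 genes are listed at 0 throughout, and a 0 can be a failed estimate. Implied read totals came from single-transcript genes under 0.15 FPKM and over 800 bases, with 200 bases taken off each length, and intervals for counting error were not computed. Pair differences were tested with scipy 1.17.1. All 52 members matched GENCODE M21 by identifier, and 24 of them have an exon that overlaps another gene, 7 of these a gene of the table on the opposite strand (Actl6a, Pbrm1, Phf10, Ruvbl2, Smarcc1, Smarcd1 and Smarcd3).

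The members, lists and pairs were chosen with earlier results of these data known. Named genes are both genes of each pair, the 2 highest and the lowest member of each role, members not called above 1 FPKM, the 5 with the largest SD, and the highest and lowest gene of each list of other subunits. Other genes named were picked with their values in view. Alternatives were pseudocounts, levels, rescaling, filters, limma's variance options and leaving out each replicate.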

Additional observations from a re-analysis of the deposited data

Results flagged for a closer look

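In 4 members the highest or lowest library stood far from the other 4 by Dixon's criterion on log2(FPKM + 1), which chance meets in about 1 of 20 groups of samples. Of the 47 members with a mean of 1 FPKM or more 3 met it (6.38%), against 4.79% of all 10983 such genes, so the number is near the background and is no result about these members. For Actl6b this was replicate 2, the highest at 0.0882 FPKM, while the others were listed at 0. With 4 libraries at 0 any single value above it meets the criterion by construction. Chd2 was lowest in replicate 5 at 15.9 FPKM, against 22.6 to 24.6 FPKM in the others. Chd8 was lowest in replicate 1 at 15.5 FPKM, against 18.5 to 19.9 FPKM in the others. Mbd3 was highest in replicate 3 at 10.9 FPKM, against 8.40 to 9.07 FPKM in the others.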

How the results depend on the processing

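The number of members above 1 FPKM ran from 44 to 45 when each replicate was left out and from 39 to 48 under the other settings, and the number below ran from 3 to 4 without each replicate. Members below numbered 8 against a level of 2 FPKM and 1 when a mean of at least 0.1 FPKM was required, which removes Actl6b, Bcl11b and Chd5, and that filter left 3495 genes of the whole table below. All 22 pair differences kept their sign under each alternative run. Rescaling to a sum of 1000000 FPKM moved the median of all tested genes by 0.21 on the log2 scale, and Smarcd3 then stood at 0.0673 and not -0.09. Against 2 FPKM the log2 difference was -0.57 for Dpf3, -0.03 for Smarcc2 (-0.025), -0.10 for Dpf1, -0.46 for Ss18l1, -0.31 for Srcap and -0.44 for Actr5, and against 0.5 FPKM it was 0.32 for Smarcd3. These follow from the level itself. Leaving out each replicate, Dpf3 ran from -0.0377 (without replicate 3) to 0.069 (without replicate 5), with -0.0068 without replicate 2, against 0.02 with all libraries. Samples could not be paired between groups because there is 1 group, and the 22 gene pairs were compared within libraries. For Actl6b and Chd5 a level comes from few reads, and Bcl11b, whose reads were not worked out, also stood near the floor at 0.0510 FPKM on average. Counting error was not computed, so differences between libraries cannot be read for these genes.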

Other observations

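The promoter of the median remodeller gene held more CpG than that of the median gene, with a wide range among members. Over the 42 members with a RefSeq promoter window of 300 bases the median was 29.5 CpG, against 8 over 27025 genes of all kinds with such a window. Those 27025 were not limited to expressed or protein-coding genes, and no background of that kind was counted. Where a gene has several windows, the highest count was taken. Actl6a had 21 CpG and Actl6b 23, Chd4 had 29 and the nearly silent Chd5 33, while Smarcd2 had 4, Bcl11b 9 and Smarca1 9. Members also had long transcripts, with a median longest transcript of 4718 bases over the 47 with a mean of at least 1 FPKM, against 3353 bases over 10954 such genes. Across these 47 genes Spearman's rho of level and longest transcript was -0.126, and across the 10954 it was -0.212, a description over genes that share their libraries and are not independent replicates.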
